A study of Homo sapiens with 18 samples.

Results

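The genes described here are 54 components of the kinetochore, the mitotic spindle and the cytokinesis machinery, among 61544 genes counted in BJ human skin fibroblasts. They were taken by gene symbol from a list of names, and all 54 symbols were rows of both count tables. The list was chosen with earlier results of these data known, so counts of its members are no independent test. The series concerns the long noncoding RNA PURPL and cellular senescence, in which cells stop dividing for good. In the knockdown experiment, CRISPR interference (a guided repressor that lowers transcription of its target) used a control guide (sgCtrl) or 1 of 2 guides against PURPL (sgRNA-PURPL#1 and sgRNA-PURPL#2, here guide 1 and guide 2). In the overexpression experiment, a control (Ctrl) was set beside PURPL#1-OE and PURPL#2-OE, here line 1 and line 2. The labels give BJ as the cell line of all 6 groups, with 3 libraries each, and do not say whether the 2 overexpression groups are constructs, clones or separate lines, nor name their vector or promoter. Nothing in the labels says that the 3 libraries of a group came from separate cultures, so the p-values cover the spread among these libraries alone, which may be technical.

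Chromosomes are pulled apart by microtubules that attach to the kinetochore, a protein assembly built on centromeric chromatin marked by the histone variant CENP-A. An inner layer holds the centromere, an outer layer grips the microtubule, and checkpoint kinases hold back anaphase until every kinetochore is attached. Condensin compacts the chromosomes, Aurora and Polo kinases time the steps, and an actomyosin ring then cleaves the cell. Transcription of many of these genes peaks in G2 and mitosis and is low in resting cells. It is repressed by the DREAM complex and activated by MuvB with B-MYB (MYBL2) and FOXM1, through a promoter element called CHR (cell cycle genes homology region), often beside CCAAT boxes bound by NF-Y.

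Promoter letters of 5 members are shown because the members moved together in the counts and because these letters hold, or lack, the 2 elements named above. MKI67 and PLK1 were picked for display after their values were seen, as members with both elements. ANLN and NDC80 fell with both guides and in both lines, and SMC2 did not pass the test with either guide. The sequences are from RefSeq (GRCh38.p14), 5′ to 3′ on the gene's own strand, from 120 bases before the annotated start to 19 bases after it. Capitals mark every CHR hexamer (TTTGAA or TTCGAA, either strand) and every CCAAT (either strand, so also ATTGG). Positions are MKI67 chr10:128126404-128126543 (minus strand), ANLN chr7:36389742-36389881, NDC80 chr18:2571437-2571576, PLK1 chr16:23678769-23678908 and SMC2 chr9:104094189-104094328 (plus strand).
MKI67: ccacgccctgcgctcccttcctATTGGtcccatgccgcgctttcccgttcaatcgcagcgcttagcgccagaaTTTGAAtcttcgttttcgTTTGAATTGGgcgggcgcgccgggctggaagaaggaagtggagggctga
ANLN: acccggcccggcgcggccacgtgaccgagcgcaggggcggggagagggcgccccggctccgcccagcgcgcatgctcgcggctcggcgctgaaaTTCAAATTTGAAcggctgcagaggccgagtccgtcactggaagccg
NDC80: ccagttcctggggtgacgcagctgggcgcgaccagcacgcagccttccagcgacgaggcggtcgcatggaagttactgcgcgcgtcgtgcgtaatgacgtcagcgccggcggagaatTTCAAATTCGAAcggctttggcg
PLK1: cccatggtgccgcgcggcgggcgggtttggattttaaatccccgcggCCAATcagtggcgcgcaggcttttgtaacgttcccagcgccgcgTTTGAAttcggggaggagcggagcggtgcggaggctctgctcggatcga
SMC2: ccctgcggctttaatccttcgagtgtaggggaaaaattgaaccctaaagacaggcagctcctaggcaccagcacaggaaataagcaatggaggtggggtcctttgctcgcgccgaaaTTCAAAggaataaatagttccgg

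In MKI67, the gene of the proliferation marker Ki-67, a CHR hexamer runs into a CCAAT on the opposite strand, so the 2 matches overlap. ANLN and NDC80 hold 2 adjoining hexamers each and no CCAAT in their windows. SMC2 holds a hexamer at its first start, and its second annotated start holds neither element. The RefSeq table matched 45 of the 54 members, with 56 windows of 250 bases before to 50 bases after a start. AURKA, BIRC5, CENPM, FOXM1, KNL1, RACGAP1, TPX2, TTK and UBE2C had no entry.

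A CHR hexamer stood in 36 of the 56 member windows (64.3%), against 16.4% of 35116 windows of the same length over all genes. CCAAT stood in 37 (66.1%) against 34.6%, and both in 25 (44.6%) against 6.38%. At least 2 CCAAT matches were found in 39.3% of member windows and in 10.8% of all windows. By gene, 34 members had a hexamer, 33 had CCAAT, 24 had both in 1 window and 3 had neither (CENPE, CENPI and MYBL2). Members with 2 or more windows enter the window counts more than once, and a match is a description of letters, not a measured binding site.

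**Figure D1:**
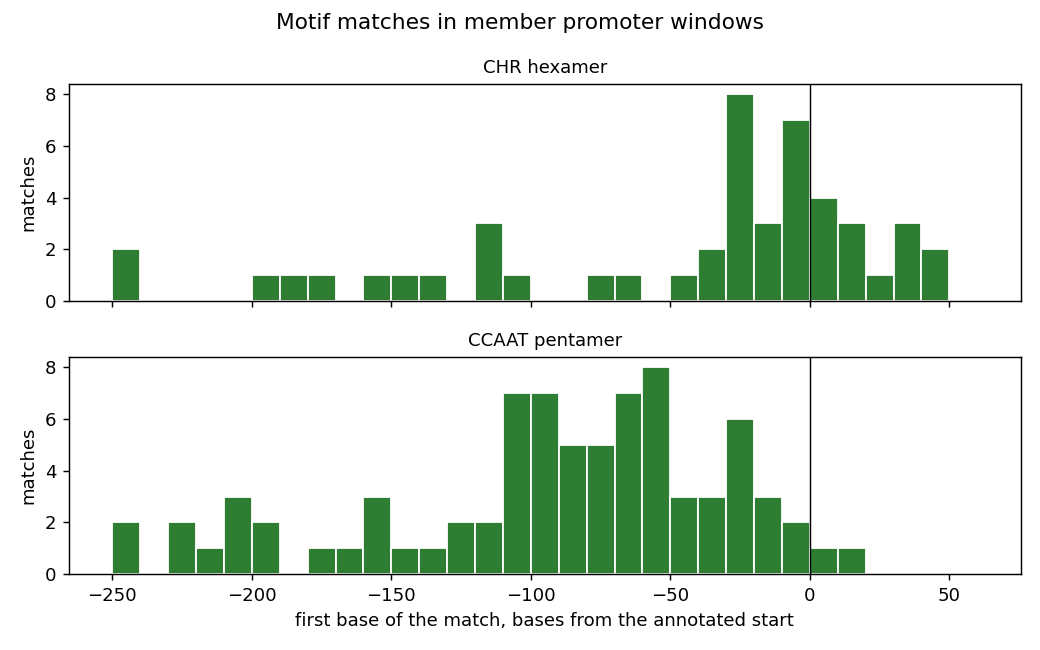
First base of each CHR hexamer (top) and CCAAT match (bottom) in the member promoter windows, counted in bases from the annotated start (bars, matches per 10 bases). CHR matches gather around the start, and CCAAT matches lie mostly upstream of it.

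Members with and without the hexamer lay in overlapping ranges of expression change. The mean log2 fold change over both guides had a median of -0.72 (range -1.13 to -0.02) over the 32 tested members with a hexamer and -0.81 (range -1.03 to -0.46) over the 11 without one. Over both lines the medians were -1.24 (range -1.64 to -0.35) and -1.37 (range -1.60 to -0.78). The members closest to no change, SMC2 and NCAPD2, held a hexamer, SMC2 at its first start only and NCAPD2 at position -145. Whether the hexamer bears on the size of the change was not tested.

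Each knockdown library held 11444513 to 12896040 counts and each overexpression library 18858976 to 27985649. Levels are given as TMM-scaled CPM, counts relative to a library's scaled total, and the 2 tables were scaled separately. PURPL itself fell with both guides (log2 fold change -2.36 ± 0.104 and -2.06 ± 0.101, SE) and rose in both lines (1.43 ± 0.0590 and 0.93 ± 0.0594), as the labels have it. Of 10 fibroblast markers 9 were abundant in every library, and TWIST2 was low (0.225 to 6.51 CPM). The summed fibroblast markers ran from 15800 to 17000 CPM in the knockdown table, and from 23200 to 23600 CPM in Ctrl against 28000 to 31400 CPM in the lines. Keratinocyte markers summed to 6.40 to 12.9 CPM, nearly all of it KRT10, with KRT5, KRT14 and KRT1 at or near 0. Endothelial markers summed to 2.43 to 7.29 CPM, melanocyte markers to 0.107 to 1.43 CPM and immune markers to 0.0791 to 1.74 CPM. The rise of the fibroblast markers went along with overexpression, and its part in the results below was not tested.

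Of the 54 members, 52 passed the filter on low counts in both tables. NUSAP1, a spindle microtubule protein, had 1 and 2 counts over the 9 libraries of each table, and PRC1, which bundles midzone microtubules, had 0 in both. Other genes on the same strand cover 99.9% of the NUSAP1 span and 99.5% of the PRC1 span, and whether this overlap accounts for the missing counts was not tested. In 10 tested members a same-strand gene overlaps part of the span, 46.1% of it in CENPA and at most 6.42% in the other 9, so these counts are less certain. All 54 rows are protein-coding genes.

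Transcripts of the module took a smaller share of all counts in every PURPL-perturbed library than in any control. The share was 0.278% to 0.303% in sgCtrl, 0.169% to 0.171% with guide 1 and 0.198% to 0.208% with guide 2. In the overexpression table it was 0.320% to 0.329% in Ctrl, 0.155% to 0.158% in line 1 and 0.148% to 0.158% in line 2. The groups of each experiment therefore did not overlap with their control, and guide 1 lay below guide 2. These are bulk libraries, in which fewer dividing cells and less of these RNAs per cell cannot be told apart.

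Tested one by one, most members fell in all 4 comparisons with a control and none rose. With guide 1, 49 of 52 were lower and 0 higher, where 12.9% of all 13923 genes tested were lower and 11.6% higher (edgeR's quasi-likelihood test, adjusted p under 0.05 over all genes). With guide 2, 43 were lower and 0 higher, against 12.4% and 11.9% of all genes. All 52 were lower in line 1 and all 52 in line 2, with 0 higher, where 20.1% and 19.6% of 15267 genes were lower and 19.5% and 18.9% higher. Both guides share the sgCtrl libraries and both lines share the Ctrl libraries, so the comparisons within a table are not independent. Members were chosen with earlier results of these data known, so these counts describe the list and do not test it.

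The median log2 fold change of the members was -0.94 with guide 1, -0.56 with guide 2, -1.19 in line 1 and -1.24 in line 2, while the median of all genes lay within 0.01 of 0. A fall of at least 2-fold was found for 21 members with guide 1, 1 with guide 2 (SPC25), 33 in line 1 and 38 in line 2. Among all genes tested, 252 and 140 of 13923 fell that far with guides 1 and 2, and 803 and 795 of 15267 in lines 1 and 2. Every library lay below every control library for 49 members with guide 1 (18.6% of all genes did so), 46 with guide 2 (18.1%), and 52 in each line (24.8% and 23.3%).

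**Figure D2:**
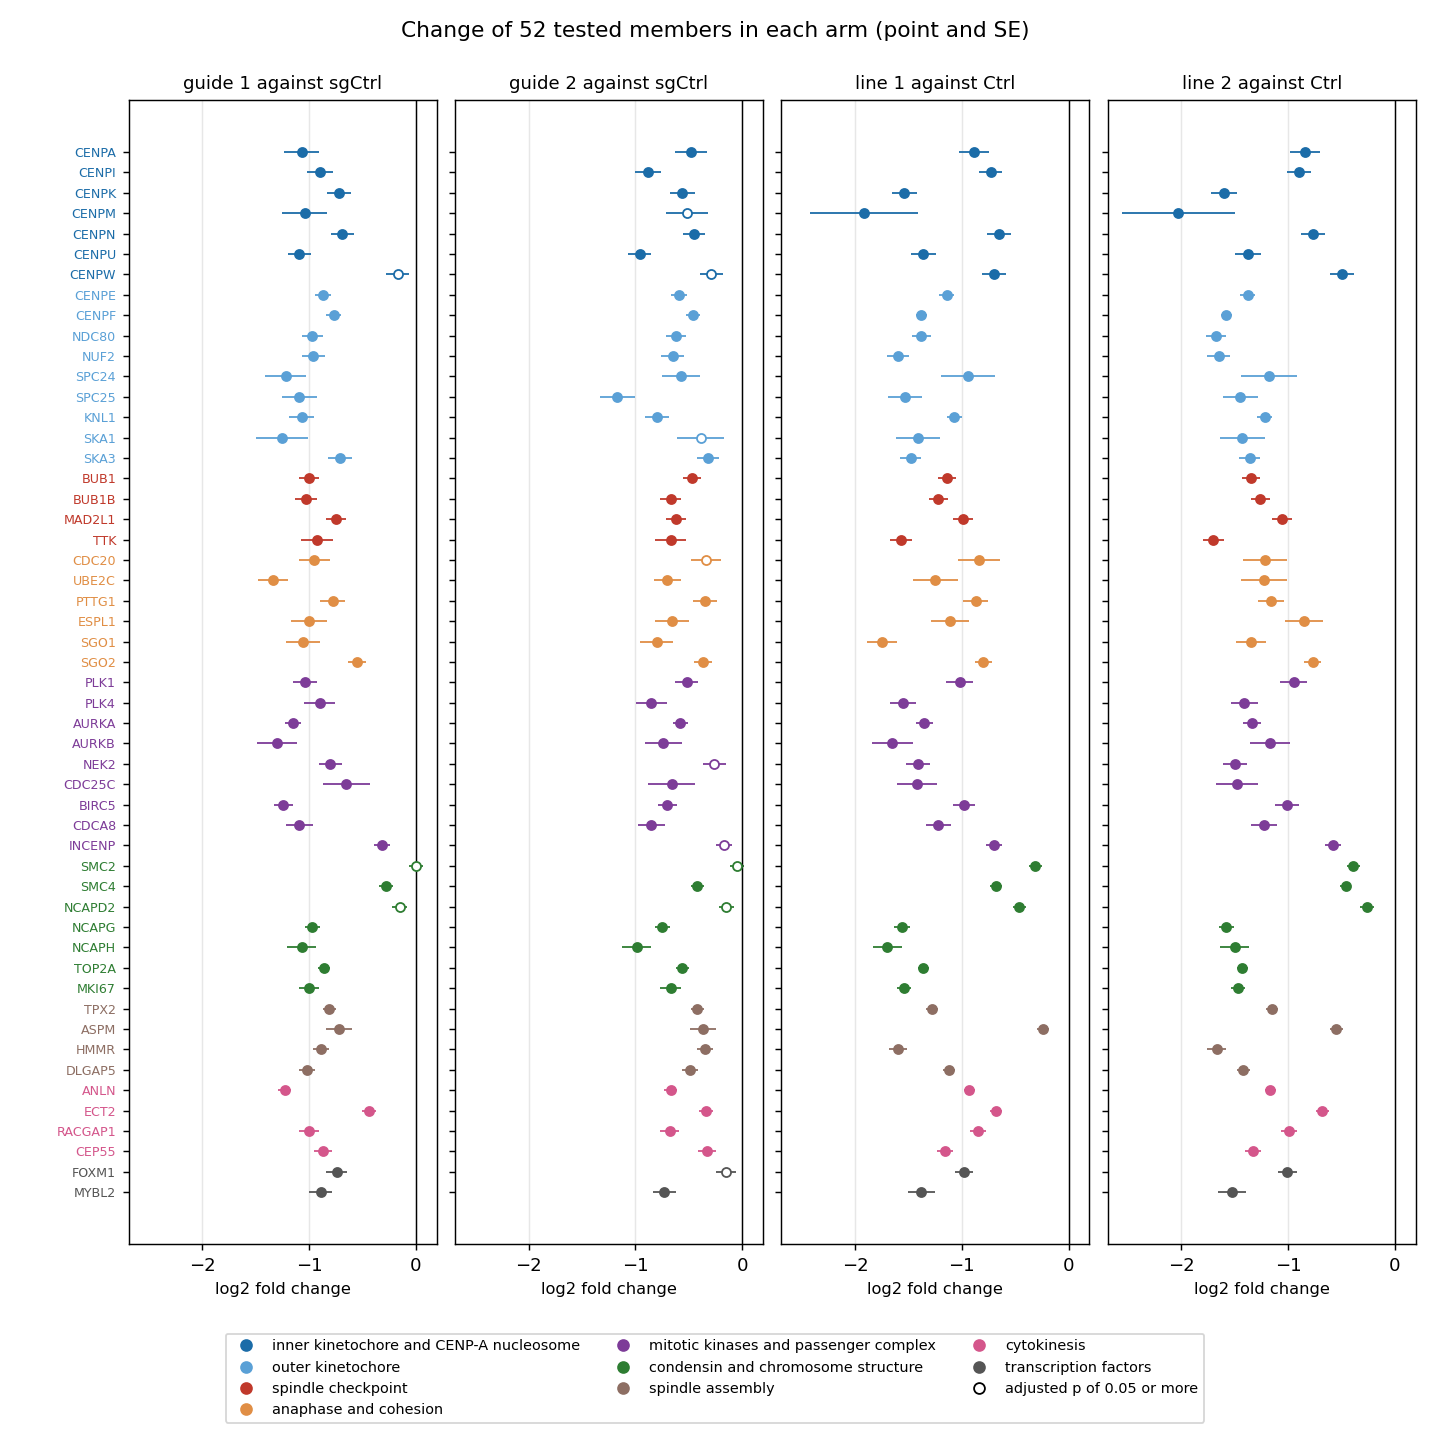
Log2 fold change (x axis) of the 52 tested members (rows, coloured by subgroup) against the control of each arm, with SE as horizontal lines and open points where the adjusted p was 0.05 or more. Open points appear for 3 members with guide 1 and 9 with guide 2, and for none in the lines.

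The CENP-A nucleosome and the inner kinetochore, the layer that stays on the centromere, were represented by 7 members. With guide 1, 6 fell, with guide 2, 5 fell, and in each line all 7 fell, with medians of -0.90, -0.52, -0.89 and -0.90. CENPA, the centromeric histone itself (chr2:26764289-26801067 in the tables' hg38 coordinates), measured 14.3, 9.96 and 11.4 CPM in sgCtrl, 5.68, 6.10 and 5.06 with guide 1, and 6.53, 9.32 and 9.63 with guide 2. It was below every control library with either guide, and changed by -1.07 ± 0.162 (adjusted p = 7.39e-06) and -0.48 ± 0.151 (adjusted p = 0.0207). The second of these calls did not pass with DESeq2 (adjusted p = 0.0698), without sgCtrl replicate 1 (-0.33, adjusted p = 0.123) or without guide 2 replicate 1 (-0.32, adjusted p = 0.157). CENPA measured 6.94, 8.05 and 7.90 CPM in Ctrl, 4.51, 4.05 and 3.72 in line 1 (-0.89 ± 0.140), and 5.01, 3.98 and 3.85 in line 2 (-0.84 ± 0.142), again below every control library.

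CENPU and CENPK, subunits of the centromere-associated network that links CENP-A chromatin to the outer layer, fell in all 4 comparisons. CENPU measured 22.9, 25.0 and 24.4 CPM in sgCtrl, 12.1, 11.3 and 10.6 with guide 1, and 14.5, 11.3 and 11.4 with guide 2. Its log2 changes of -1.09 ± 0.108 (adjusted p = 3.27e-09) and -0.96 ± 0.107 (adjusted p = 3.91e-08) put it among the 5 members that fell furthest over both guides. In Ctrl it measured 16.4, 15.9 and 13 CPM, beside 5.33, 5.75 and 6.61 in line 1 (-1.36 ± 0.120) and 5.92, 6.39 and 5.16 in line 2 (-1.38 ± 0.122). CENPK measured 16.3, 15.1 and 16.4 CPM in sgCtrl, 9.34, 9.27 and 10.5 with guide 1 (-0.72 ± 0.116), and 9.67, 11 and 11.7 with guide 2 (-0.56 ± 0.114). CENPK moved more in the lines, from 20.3, 18.1 and 17.9 CPM in Ctrl to 6.01, 7.10 and 6.41 in line 1 (-1.54 ± 0.116) and 7.36, 5.0 and 6.31 in line 2 (-1.60 ± 0.119).

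CENPM, another subunit of that network, was close to the detection limit of the overexpression table. It measured 0.857, 1.49 and 1.91 CPM in Ctrl, 0.465, 0 and 0.593 in line 1, and 0.320, 0.231 and 0.451 in line 2, from 147 counts in all 9 libraries. The fitted falls of -1.92 ± 0.505 (adjusted p = 0.00421) and -2.03 ± 0.529 (adjusted p = 0.00401) were the largest of any member in the lines and also carried the widest errors. With the guides, its sgCtrl values of 5.64, 4.90 and 4.62 CPM compared with 1.79, 2.38 and 3.22 (-1.04 ± 0.212, adjusted p = 3.77e-04) and 3.80, 3.61 and 3.13 (-0.52 ± 0.198, adjusted p = 0.0540, not passed). The guide 2 call passed narrowly without sgCtrl replicate 3 (adjusted p = 0.0492) or without guide 1 replicate 1 or 3 (0.0479 and 0.0478).

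CENPW, a histone-fold protein of the inner layer, was the highest of the 7 in counts and had the smallest mean change of the 7 over both guides (-0.23) and over both lines (-0.60). It measured 26.3, 24.6 and 19 CPM in sgCtrl, 20.5, 19.7 and 21.9 with guide 1, and 20.5, 20.3 and 16.5 with guide 2, so the ranges overlapped. The changes of -0.17 ± 0.109 (adjusted p = 0.271) and -0.29 ± 0.11 (adjusted p = 0.0578) did not pass. Without sgCtrl replicate 3, the lowest control library, both passed, at -0.30 (adjusted p = 0.0279) and -0.41 (adjusted p = 0.00246), and the guide 2 change also passed with a replicate block (0.0498) and with no filter on low counts (0.0346). In the overexpression table it fell from 16.4, 15.5 and 20.7 CPM to 11.5, 10.6 and 9.97 (-0.70 ± 0.113) and 13.8, 10.6 and 12.9 (-0.50 ± 0.113). CENPI and CENPN, the other 2 subunits, fell by 0.45 to 0.90 on the log2 scale in the 4 comparisons.

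The outer kinetochore, which binds microtubules, fell in all 9 members with guide 1, in 8 with guide 2 and in all 9 in each line. Its medians were -0.97, -0.59, -1.38 and -1.43. The 4 subunits of the NDC80 complex, the main microtubule coupler, all fell in the 4 comparisons. NDC80 (chr18:2571557-2616635) measured 31.1, 26.2 and 28.0 CPM in sgCtrl, 14.8, 14.7 and 14 with guide 1, and 17.4, 19.6 and 18.3 with guide 2. It measured 37.4, 34.4 and 37.8 CPM in Ctrl, 13.2, 13.2 and 15.7 in line 1, and 10.7, 10.6 and 12.9 in line 2. No perturbed library reached its controls, and the log2 changes were -0.97 ± 0.0956, -0.62 ± 0.0926, -1.38 ± 0.0905 and -1.68 ± 0.0940 (largest adjusted p = 5.69e-06).

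SPC25, which docks the NDC80 complex onto the rest of the kinetochore, was the member that fell furthest over both guides. It measured 10.1, 9.73 and 8.06 CPM in sgCtrl, 4.98, 4.12 and 3.92 with guide 1 (-1.09 ± 0.161), and 4.79, 3.86 and 3.76 with guide 2 (-1.17 ± 0.163). Its partner SPC24 measured 8.07, 5.60 and 6.26 CPM in sgCtrl, 3.11, 2.69 and 2.70 with guide 1 (-1.22 ± 0.194), and 5.04, 3.61 and 4.70 with guide 2 (-0.57 ± 0.179, adjusted p = 0.0193). The guides thus gave alike values for SPC25 and unlike values for SPC24, whose guide 2 call did not pass with DESeq2 (adjusted p = 0.0845), without sgCtrl replicate 1 (-0.41, adjusted p = 0.120) or without guide 2 replicate 2 (adjusted p = 0.116).

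In the overexpression table SPC25 measured 7.56, 7.11 and 5.99 CPM in Ctrl, 2.47, 1.98 and 2.69 in line 1 (-1.53 ± 0.161), and 2.35, 2.73 and 2.5 in line 2 (-1.45 ± 0.164). SPC24 measured 2.03, 2.89 and 2.38 CPM in Ctrl, 1.18, 1.03 and 1.58 in line 1 (-0.94 ± 0.251), and 1.23, 1.30 and 0.738 in line 2 (-1.18 ± 0.265). Both lay below every Ctrl library in both lines. NUF2, which pairs with NDC80 in the microtubule-binding part of the complex, measured 18.8, 18.6 and 17.1 CPM in sgCtrl, 8.95, 9.83 and 9.15 with guide 1 (-0.96 ± 0.111), and 12, 11.9 and 10.8 with guide 2 (-0.65 ± 0.107). It went from 22.6, 23.2 and 20.9 CPM in Ctrl to 7.69, 6.38 and 7.91 in line 1 (-1.60 ± 0.104) and 6.29, 7.64 and 7.21 in line 2 (-1.65 ± 0.107).

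CENPF, a large coiled-coil protein of the outer layer with the highest counts of the 9, measured 173, 196 and 215 CPM in sgCtrl, 114, 112 and 116 with guide 1, and 136, 152 and 139 with guide 2. The corresponding values were 234, 216 and 235 CPM in Ctrl, 88.0, 84.5 and 89.9 in line 1, and 73.1, 78.1 and 78.3 in line 2. All perturbed libraries lay below their controls (-0.77 ± 0.0689, -0.46 ± 0.0682, -1.38 ± 0.0532 and -1.58 ± 0.0541). The scaffold KNL1, which recruits checkpoint proteins, also fell in the 4 comparisons. The motor CENPE, which carries chromosomes along microtubules, measured 80.2, 83.3 and 94.9 CPM in sgCtrl, 51, 44.9 and 45.8 with guide 1 (-0.87 ± 0.0744), and 56.8, 60.4 and 54.3 with guide 2 (-0.59 ± 0.0731). It measured 113 to 120 CPM in Ctrl, 55.2, 51.7 and 50.7 in line 1 (-1.14 ± 0.0698), and 37.4, 45.5 and 49.5 in line 2 (-1.38 ± 0.0714).

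SKA1 and SKA3 belong to the SKA complex, which keeps kinetochores on shortening microtubules. SKA1, with low counts, measured 3.64, 4.82 and 4.85 CPM in sgCtrl, 1.63, 2.54 and 1.39 with guide 1 (-1.25 ± 0.244, adjusted p = 2.32e-04), and 4.05, 2.43 and 3.68 with guide 2 (-0.39 ± 0.219, adjusted p = 0.206). Guide 2 overlapped sgCtrl here. In Ctrl SKA1 measured 4.13, 4.85 and 4.34 CPM, beside 1.68, 1.66 and 1.66 in line 1 (-1.41 ± 0.204) and 1.44, 2.31 and 1.19 in line 2 (-1.43 ± 0.210). SKA3 measured 19.7, 19.5 and 22.5 CPM, then 11.7, 12.3 and 13.7 (-0.71 ± 0.109), and 18.3, 16.5 and 14.6 (-0.32 ± 0.105, adjusted p = 0.0241, or 0.0853 with DESeq2). That call was also lost without sgCtrl replicate 3 (adjusted p = 0.107), guide 2 replicate 2 (0.0618) or guide 2 replicate 3 (0.157). In the lines SKA3 fell from 30.2, 27.1 and 31.2 CPM to 9.44, 11.3 and 11.1 (-1.48 ± 0.0969) and 10.4, 11.2 and 12.7 (-1.36 ± 0.0976).

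The spindle checkpoint holds the cell in metaphase until all chromosomes are attached. Its 4 members, the kinases BUB1 and TTK, the kinase-like BUB1B and the inhibitor MAD2L1, fell in all 4 comparisons, with medians of -0.96, -0.64, -1.18 and -1.30. BUB1 measured 29.2, 32.9 and 36.1 CPM in sgCtrl, 17.1, 16 and 16.1 with guide 1, and 24, 23.3 and 23.9 with guide 2. It measured 36.6, 37.2 and 34.4 CPM in Ctrl, 17.4, 15.8 and 15.9 in line 1, and 14.5, 13.1 and 14.9 in line 2. The groups did not overlap with their controls (-1.0 ± 0.0921, -0.47 ± 0.0877, -1.14 ± 0.0807 and -1.35 ± 0.0831).

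TTK, the MPS1 kinase at the top of the checkpoint, was among the 5 members that fell furthest in the lines. It went from 21.0, 20.4 and 21.4 CPM in Ctrl to 7.23, 7.46 and 6.45 in line 1 (-1.57 ± 0.0987) and 6.72, 6.34 and 6.31 in line 2 (-1.70 ± 0.102). With the guides it went from 13.4, 11.9 and 18.3 CPM to 7.0, 8.80 and 7.15 (-0.93 ± 0.150) and 10.4, 8.73 and 8.38 (-0.67 ± 0.146).

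A set of 6 members acts at anaphase or guards cohesion, and all 6 fell with guide 1, 5 with guide 2 and 6 in each line (medians -0.98, -0.52, -0.99 and -1.19). UBE2C, the ubiquitin-conjugating enzyme of the anaphase promoting complex, measured 15.3, 14.9 and 15 CPM in sgCtrl, 7.08, 4.52 and 6.28 with guide 1 (-1.34 ± 0.141), and 10.2, 8.23 and 9.39 with guide 2 (-0.70 ± 0.131). CDC20, the activator of that complex and the target of the checkpoint, measured 11.8, 11.1 and 9.16 CPM in sgCtrl, 4.90, 5.39 and 6.28 with guide 1 (-0.95 ± 0.147), and 9.0, 8.39 and 7.83 with guide 2. Guide 2 lay just under its controls, and its change of -0.34 ± 0.138 (adjusted p = 0.0698) did not pass, but did so without sgCtrl replicate 3 (-0.44, adjusted p = 0.0239). In the overexpression table UBE2C measured 3.94, 3.56 and 3.51 CPM in Ctrl, 1.93, 1.08 and 1.54 in line 1 (-1.25 ± 0.210), and 1.65, 1.67 and 1.39 in line 2 (-1.23 ± 0.215). CDC20 measured 4.33, 5.32 and 4.44 CPM in Ctrl, 2.07, 3.46 and 2.41 in line 1 (-0.84 ± 0.195), and 1.97, 2.59 and 1.52 in line 2 (-1.22 ± 0.207), and neither gene overlapped with its controls.

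SGO2, a shugoshin that protects centromeric cohesion, had the smallest mean change of its subgroup over both guides (-0.46) and over both lines (-0.78). It measured 33.7, 32.9 and 38.1 CPM in sgCtrl, 23.1, 25.2 and 23.2 with guide 1 (-0.55 ± 0.0844), and 26.0, 27.2 and 27.7 with guide 2 (-0.37 ± 0.0832). It measured 45.7, 46.5 and 40 CPM in Ctrl, 25.4, 23.1 and 27.7 in line 1, and 23.4, 26.4 and 27.7 in line 2. The changes in the lines were -0.80 ± 0.0800 and -0.77 ± 0.0808, beside -1.75 ± 0.142 and -1.35 ± 0.140 for its paralogue SGO1. The securin PTTG1 and the separase ESPL1, the protease that opens cohesin, fell in all 4 comparisons.

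Mitotic kinases and the chromosomal passenger complex made up 9 members, of which 9, 7, 9 and 9 fell (medians -1.04, -0.66, -1.35 and -1.23). AURKB, the kinase of the passenger complex that corrects wrong attachments, measured 8.67, 8.02 and 7.36 CPM in sgCtrl, 3.19, 3.33 and 3.22 with guide 1 (-1.30 ± 0.185), and 6.20, 3.44 and 4.70 with guide 2 (-0.74 ± 0.173). It went from 4.79, 4.38 and 4.75 CPM in Ctrl to 1.75, 1.35 and 1.31 in line 1 (-1.65 ± 0.190) and 2.40, 1.99 and 1.84 in line 2 (-1.17 ± 0.185). No perturbed library reached its controls. Its partners BIRC5 (survivin) and CDCA8 (borealin) changed by -1.24 ± 0.0934 and -1.09 ± 0.129 with guide 1 and by -0.70 ± 0.0888 and -0.85 ± 0.126 with guide 2.

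INCENP, the scaffold of the same complex, moved less than its partners. It measured 76.9, 79.1 and 87.6 CPM in sgCtrl, 68.3, 64.5 and 61.7 with guide 1 (-0.32 ± 0.0735, adjusted p = 0.00123), and 63.9, 75.8 and 76.6 with guide 2 (-0.17 ± 0.0729, adjusted p = 0.0866, not passed). Without sgCtrl replicate 1 the guide 2 change passed (-0.21, adjusted p = 0.0266). In the lines it fell from 33.6, 36.8 and 33.4 CPM to 21.0, 22.5 and 20.7 (-0.70 ± 0.0747) and 22.8, 23.7 and 22.9 (-0.58 ± 0.0752). The difference between INCENP and its partners within a comparison was not tested.

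AURKA and PLK1, which mature the spindle poles, PLK4, which starts centriole duplication, and CDC25C, the phosphatase that activates CDK1, fell in the 4 comparisons. NEK2, a kinase that splits the centrosomes, measured 17.4, 17.0 and 15.7 CPM in sgCtrl, 9.26, 9.27 and 10.3 with guide 1 (-0.80 ± 0.111), and 14.4, 14.4 and 13.2 with guide 2 (-0.26 ± 0.105, adjusted p = 0.0691, not passed). It went from 19.6, 16 and 19.3 CPM in Ctrl to 6.51, 6.56 and 7.56 in line 1 (-1.41 ± 0.111) and 6.02, 7.22 and 6.19 in line 2 (-1.50 ± 0.114).

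Condensin and chromosome structure had 7 members that spread widely, from -1.07 to 0.00 with guide 1 and from -0.99 to -0.05 with guide 2. Condensin I is built from the 2 SMC ATPases SMC2 and SMC4 and the subunits NCAPD2, NCAPG and NCAPH. NCAPH, the kleisin that closes the ring, measured 12.8, 13.2 and 12.9 CPM in sgCtrl, 7.0, 5.63 and 5.75 with guide 1 (-1.07 ± 0.134), and 6.03, 7.05 and 6.5 with guide 2 (-0.99 ± 0.133). It went from 13, 10.9 and 10.8 CPM in Ctrl to 3.58, 4.05 and 3.13 in line 1 (-1.70 ± 0.136) and 4.74, 3.89 and 3.73 in line 2 (-1.50 ± 0.136). NCAPG gave -0.97 ± 0.0719, -0.75 ± 0.0709, -1.56 ± 0.0717 and -1.58 ± 0.0728.

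SMC2 (chr9:104094260-104141419) stood at the other end of the module. It measured 71.9, 75.8 and 76.3 CPM in sgCtrl, 77.3, 75.4 and 71.9 with guide 1 (0.00 ± 0.0633, adjusted p = 0.972), and 72.9, 74.1 and 69.8 with guide 2 (-0.05 ± 0.0635, adjusted p = 0.641). These ranges overlapped, and neither change passed. In the lines it fell from 95.6, 80.6 and 91.9 CPM to 73.4, 72.3 and 70.5 (-0.31 ± 0.0605, adjusted p = 1.16e-04) and 64.7, 69.3 and 70.5 (-0.39 ± 0.0611, adjusted p = 5.84e-06).

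NCAPD2 measured 59.5, 68.6 and 68.6 CPM in sgCtrl, 60.4, 59.4 and 57.2 with guide 1 (-0.15 ± 0.0689, adjusted p = 0.106), and 58.7, 58.1 and 60.5 with guide 2 (-0.15 ± 0.0689, adjusted p = 0.113), and neither passed. Without sgCtrl replicate 1, its lowest control library, both did, at -0.22 each (adjusted p = 0.00999 and 0.0132). SMC4 measured 297, 268 and 287 CPM in sgCtrl, 236, 226 and 238 with guide 1 (-0.28 ± 0.0617), and 200, 230 and 208 with guide 2 (-0.42 ± 0.0619). In the lines SMC4 fell from 449, 429 and 458 CPM to 282, 279 and 272 (-0.68 ± 0.0521) and 305, 325 and 344 (-0.46 ± 0.0520). NCAPD2 fell from 80.8, 86.4 and 82.4 CPM to 55.2, 61.1 and 65.3 (-0.46 ± 0.0644) and 72.6, 73.0 and 63.6 (-0.26 ± 0.0644). TOP2A, which untangles sister DNA, and MKI67 fell in the 4 comparisons. Subunits of 1 complex therefore spanned log2 changes from 0.00 (SMC2) to -1.07 (NCAPH) with guide 1 and from -0.31 to -1.70 in line 1.

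**Figure D3:**
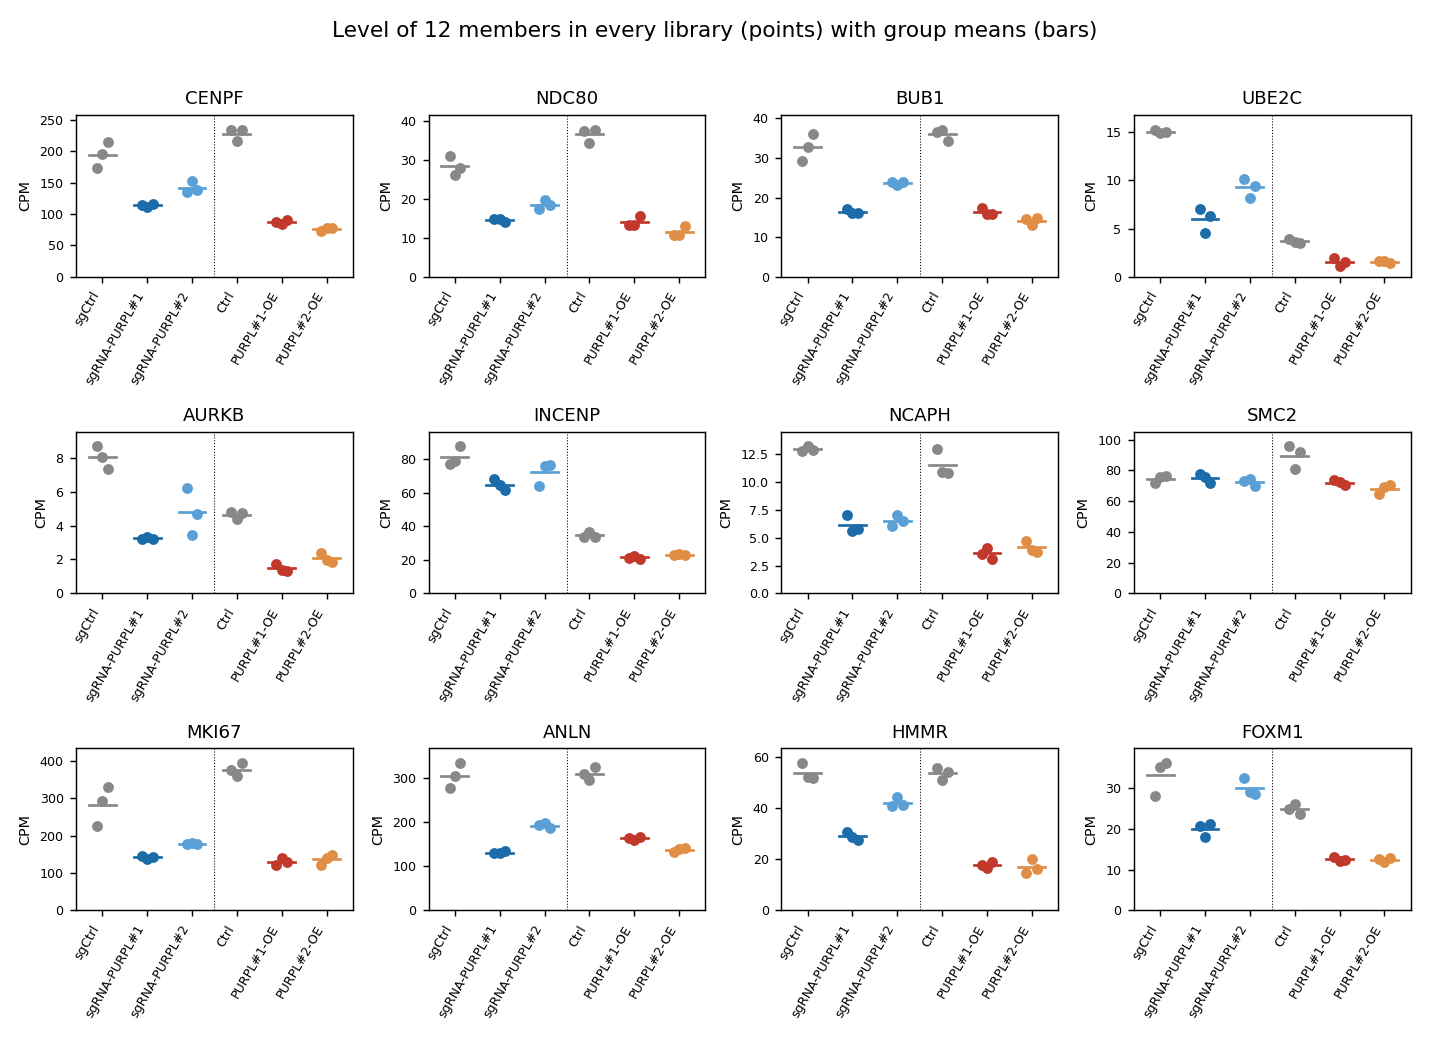
TMM-scaled CPM (y axis, from 0) of 12 members in each of the 18 libraries (points) with group means (bars); the dotted line parts the 2 experiments, which were scaled separately. NCAPH and ANLN drop in every perturbed group, whereas SMC2 overlaps its control with both guides (69.8 to 77.3 CPM against 71.9 to 76.3 CPM).

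Spindle assembly factors were represented by 4 tested members, all of which fell in the 4 comparisons (medians -0.85, -0.39, -1.20 and -1.28). TPX2, which activates Aurora A on spindle microtubules, measured 149, 153 and 148 CPM in sgCtrl, 89.2, 83.4 and 84.3 with guide 1 (-0.81 ± 0.0604), and 108, 116 and 113 with guide 2 (-0.42 ± 0.0594). It went from 119 to 122 CPM in Ctrl to 49.3, 48.8 and 51.2 in line 1 (-1.28 ± 0.0539) and 53.5, 56.1 and 53.8 in line 2 (-1.15 ± 0.0541). No perturbed library reached its controls. HMMR, a spindle and centrosome protein, went from 55.6, 51.1 and 54.2 CPM in Ctrl to 17.7, 16.4 and 18.8 in line 1 (-1.60 ± 0.0867) and 14.4, 19.9 and 16.1 in line 2 (-1.67 ± 0.0885). In the knockdown table HMMR measured 57.7, 52.2 and 51.9 CPM in sgCtrl, 30.6, 28.8 and 27.5 with guide 1 (-0.89 ± 0.0763), and 40.9, 44.2 and 41.4 with guide 2 (-0.35 ± 0.0733).

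ASPM, a protein of spindle poles, had a less negative mean change in the lines (-0.39) than with the guides (-0.55), a difference of -0.15 ± 0.126 in the joint fit that did not pass (adjusted p = 0.418). It measured 62.6, 76.0 and 95.0 CPM in sgCtrl, 46.8, 50 and 44.7 with guide 1 (-0.72 ± 0.125), and 58.7, 66.5 and 56.5 with guide 2 (-0.37 ± 0.122, adjusted p = 0.0455). Guide 2 overlapped the lowest control library, and this call did not pass in 6 of the alternative fits (adjusted p up to 0.147, without guide 2 replicate 3; the change was -0.20 without sgCtrl replicate 3). It went from 150, 156 and 129 CPM in Ctrl to 126, 121 and 123 in line 1 (-0.24 ± 0.0596, adjusted p = 0.00200) and 94.8, 97.7 and 104 in line 2 (-0.55 ± 0.0604). DLGAP5 (HURP), which stabilises kinetochore fibres, fell from 85.9, 83.9 and 82 CPM in sgCtrl to 46, 38.1 and 39.6 with guide 1 (-1.02 ± 0.0742) and 55.9, 59.7 and 64 with guide 2 (-0.49 ± 0.0716). In the lines it fell from 88.4, 84.4 and 86.6 CPM to 38.4, 38.6 and 42.6 (-1.12 ± 0.0594) and 32.8, 31.8 and 32.1 (-1.42 ± 0.0612).

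In the cytokinesis subgroup 4 members were tested and all 4 fell in each comparison (medians -0.93, -0.51, -0.89 and -1.08). ANLN, anillin, the scaffold of the contractile ring (chr7:36389821-36453791), measured 277, 305 and 334 CPM in sgCtrl, 129, 129 and 134 with guide 1 (-1.23 ± 0.0646), and 193, 197 and 186 with guide 2 (-0.67 ± 0.0634). It went from 310, 295 and 325 CPM in Ctrl to 164, 160 and 166 in line 1 (-0.93 ± 0.0512) and 132, 139 and 141 in line 2 (-1.17 ± 0.0518). The guide 1 libraries lay below those of guide 2, and the line 2 libraries below those of line 1, without overlap. RACGAP1, of the centralspindlin complex, fell by 1.0, 0.68, 0.85 and 0.99 on the log2 scale. CEP55, which recruits the abscission machinery, fell by 0.87, 0.33, 1.16 and 1.33, and ECT2, the exchange factor that activates RhoA, by 0.44, 0.34, 0.68 and 0.68.

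Both transcription factors fell with guide 1 and in the lines. FOXM1 measured 28.2, 35.3 and 36.2 CPM in sgCtrl, 20.8, 18.1 and 21.2 with guide 1 (-0.74 ± 0.0980), and 32.5, 29.1 and 28.7 with guide 2 (-0.15 ± 0.0933, adjusted p = 0.276). The guide 2 values lay inside the range of sgCtrl, and the change did not pass. The lowest of the sgCtrl values is that of replicate 1, and without it the change was -0.25 (adjusted p = 0.0325). In the overexpression table FOXM1 fell from 24.9, 26.2 and 23.7 CPM to 13.2, 12.2 and 12.4 (-0.98 ± 0.0875) and 12.5, 11.9 and 12.8 (-1.01 ± 0.0890). MYBL2 fell in all 4 comparisons, by 0.89, 0.73, 1.38 and 1.53 on the log2 scale.

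Guide 2 differed from guide 1 in the size of the fall. Of 52 members, 25 were higher with guide 2 than with guide 1 and 0 were lower, where 5.51% of all genes were higher and 3.74% lower, and the median difference was 0.32 on the log2 scale. This contrast sets the guides' libraries against each other, with a spread estimated over all 9 libraries of the table, sgCtrl included. Among those past the threshold, the largest differences were 0.86 ± 0.256 for SKA1 (adjusted p = 0.0290), 0.65 ± 0.207 for SPC24 (adjusted p = 0.0447), 0.64 ± 0.151 for UBE2C (adjusted p = 0.00479), 0.61 ± 0.153 for CDC20 (adjusted p = 0.00779) and 0.59 ± 0.170 for CENPA (adjusted p = 0.0220). Those of SKA1, SPC24 and CENPA did not pass with DESeq2 (adjusted p = 0.0974, 0.149 and 0.0615). The UBE2C difference was lost without guide 1 replicate 2 (adjusted p = 0.0679) and that of CDC20 without guide 1 replicate 1 (0.0590). Without guide 1 replicate 1, and likewise without its replicate 2, the count of higher members was 16 in place of 25. The PURPL level was 17.9, 15.2 and 14.1 CPM for guide 1, beside 19, 21.5 and 17.9 for guide 2, a difference of 0.30 ± 0.119 (adjusted p = 0.128) that did not pass.

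The lines differed from each other in fewer members. Line 2 was lower than line 1 in 6 (CENPE, CENPF, NDC80, ASPM, DLGAP5 and ANLN) and higher in 2 (SMC4 and NCAPD2), where 6.19% of all genes were lower and 6.18% higher. The largest of these differences were -0.32 ± 0.0605 for ASPM, -0.31 ± 0.0630 for DLGAP5, -0.29 ± 0.0993 for NDC80, -0.25 ± 0.0729 for CENPE and -0.25 ± 0.0518 for ANLN. NDC80 passed narrowly (adjusted p = 0.0496, and 0.0792 with DESeq2), and it did not pass in 11 alternative fits. Without the first listed library of line 1, or that of line 2, 3 members were lower in place of 6, and 1 was higher in place of 2 when either of the first 2 libraries of a line was left out. PURPL was at 166, 178 and 176 CPM in line 1, beside a lower 114 to 129 CPM in line 2, and the medians of the members were -1.19 and -1.24.

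The fall was larger in overexpression than in knockdown, averaged over both guides, for most members. Knockdown and overexpression were separate experiments with separate controls, so perturbation and experiment cannot be told apart in this difference. By the member medians, guide 1 (-0.94) lay nearer to the lines (-1.19 and -1.24) than guide 2 (-0.56). A joint fit of all 18 libraries compared the mean effect of both guides with the mean effect of both lines, each against its own control. For 35 of 52 members the knockdown effect was the higher, that is, the less negative one, and for 0 it was the lower, where 18.0% and 15.6% of 15166 genes were called in these directions. The median difference was 0.42. The largest were 1.18 ± 0.430 for CENPM (adjusted p = 0.0324), 1.02 ± 0.0982 for HMMR (adjusted p = 1.40e-11), 0.94 ± 0.141 for CENPK (adjusted p = 7.62e-07), 0.93 ± 0.133 for NEK2 (adjusted p = 2.81e-07) and 0.91 ± 0.125 for SKA3 (adjusted p = 1.13e-07). The CENPM difference, from few counts, did not pass in 8 alternative fits. Those of NCAPD2, CENPU and CENPW, which passed in the reported fit, were lost in 17, 14 and 11. For ANLN (0.11 ± 0.0721), RACGAP1 (0.08 ± 0.100) and BIRC5 (0.03 ± 0.120) no difference was called.

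**Figure D4:**
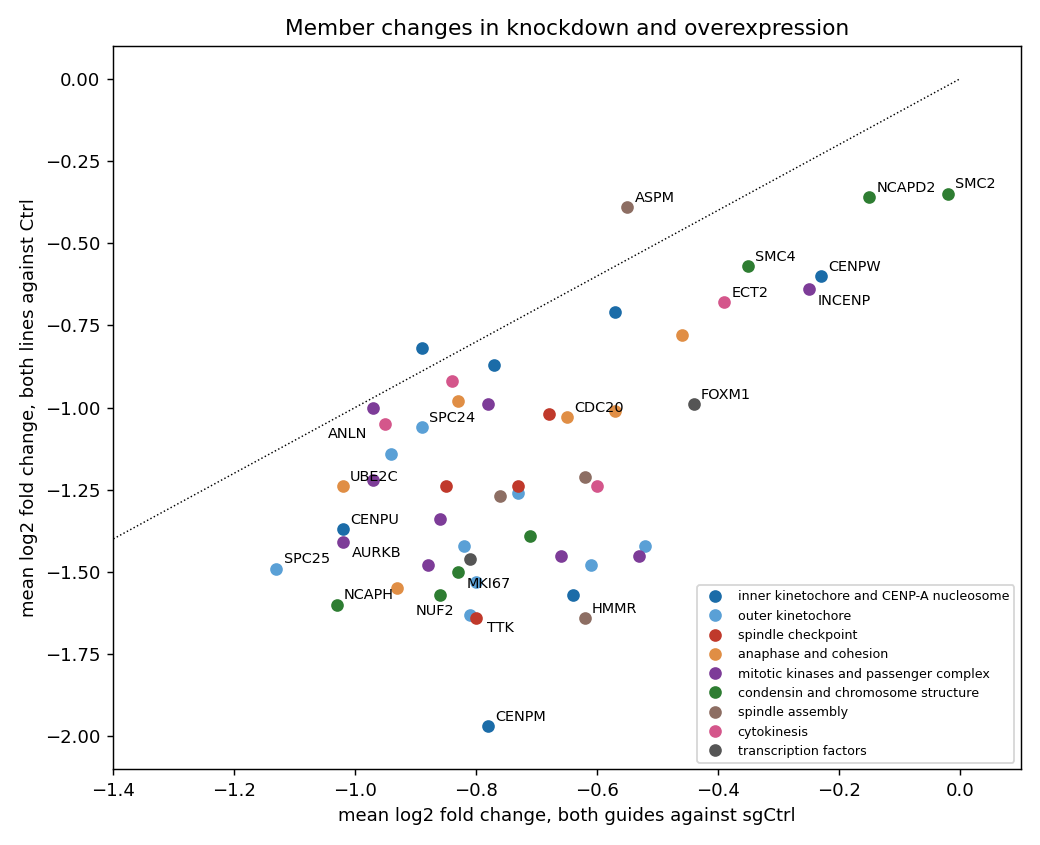
Mean log2 fold change over both guides against sgCtrl (x axis) and over both lines against Ctrl (y axis) for the 52 tested members, coloured by subgroup; the dotted line marks equal change. Of the 52 points 50 lie below it, with ASPM and CENPI above, and SMC2, NCAPD2, CENPW, INCENP and SMC4 sit nearest to no change on the x axis.

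Across the 52 members the mean changes had a Spearman correlation of 0.43 and a Pearson correlation of 0.61, given as a description over genes, which are not independent replicates. The 2 experiments share no control library. SMC2, NCAPD2, CENPW and SMC4 were among the 5 members with the least negative mean in either experiment.

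Other genes of cell division, taken from lists that hold none of the members, did not all move like them. Of 33 tested other mitotic cyclins, kinases and motors, 29 and 31 fell with the guides and 33 and 32 in the lines, with 0 higher and medians of -0.80, -0.55, -1.17 and -1.19. KPNA2, an importin that acts on spindle factors, changed by -0.70 ± 0.0597, -0.64 ± 0.0596, -0.42 ± 0.0569 and -0.35 ± 0.0570. KIF23, the motor subunit of centralspindlin and partner of RACGAP1, changed by -0.60 ± 0.0678, -0.49 ± 0.0674, -0.72 ± 0.0590 and -0.87 ± 0.0599.

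Other lists from the same machines had medians nearer to 0. Their counts, here and below, stand beside 12.9% and 12.4% of all genes lower with guides 1 and 2, and 20.1% and 19.6% in lines 1 and 2. The shares of all genes higher were 11.6%, 11.9%, 19.5% and 18.9% in the same order. Whether any of these lists differs from all genes was not tested. Of 27 other centromere and kinetochore genes, 12 and 12 fell with the guides (2 and 0 rose) and 17 and 19 in the lines (0 and 1 rose), with medians from -0.41 to -0.28. BUB3, a checkpoint adaptor, changed by -0.31 ± 0.0634, -0.21 ± 0.0631, -0.34 ± 0.0551 and -0.31 ± 0.0553. Of the 14 core subunits of the anaphase promoting complex, 0 fell and 1 rose with each guide, and 1 and 3 fell and 3 and 1 rose in lines 1 and 2. By contrast, its partners CDC20 and UBE2C, described above, fell with guide 1 and in both lines.

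Cohesin, the ring that shugoshins protect, had 2 and 4 of 13 genes lower and 4 and 2 higher with the guides, and 5 lower and 0 higher in each line. RAD21, its kleisin, rose with both guides (0.39 ± 0.0573 and 0.41 ± 0.0573) and did not pass in the lines (0.05 ± 0.0528 and 0.10 ± 0.0528). CDCA5 (sororin), which holds cohesin on replicated DNA, fell throughout (-0.99 ± 0.114, -1.14 ± 0.116, -1.44 ± 0.149 and -1.29 ± 0.150). Of the 3 condensin II subunits, 2, 3, 3 and 3 fell, NCAPG2 by 0.57, 0.38, 0.93 and 0.77 on the log2 scale.

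DREAM and MuvB components, the regulators of CHR promoters, had 2 of 11 genes lower with each guide (0 and 1 higher), and 5 and 4 lower with 2 higher in the lines. RBL1 (p107) fell in the 4 comparisons (-0.51 ± 0.111, -0.48 ± 0.111, -1.14 ± 0.0895 and -0.90 ± 0.0892). RBL2 (p130), the pocket protein typical of resting cells, rose in the lines (0.20 ± 0.0514 and 0.27 ± 0.0516) and did not pass with the guides (0.13 ± 0.0619 and 0.02 ± 0.0622). Of 10 centriole and pole genes, 2 and 1 fell with the guides (1 and 2 rose) and 8 and 6 fell in the lines (1 rose in each).

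**Figure D5:**
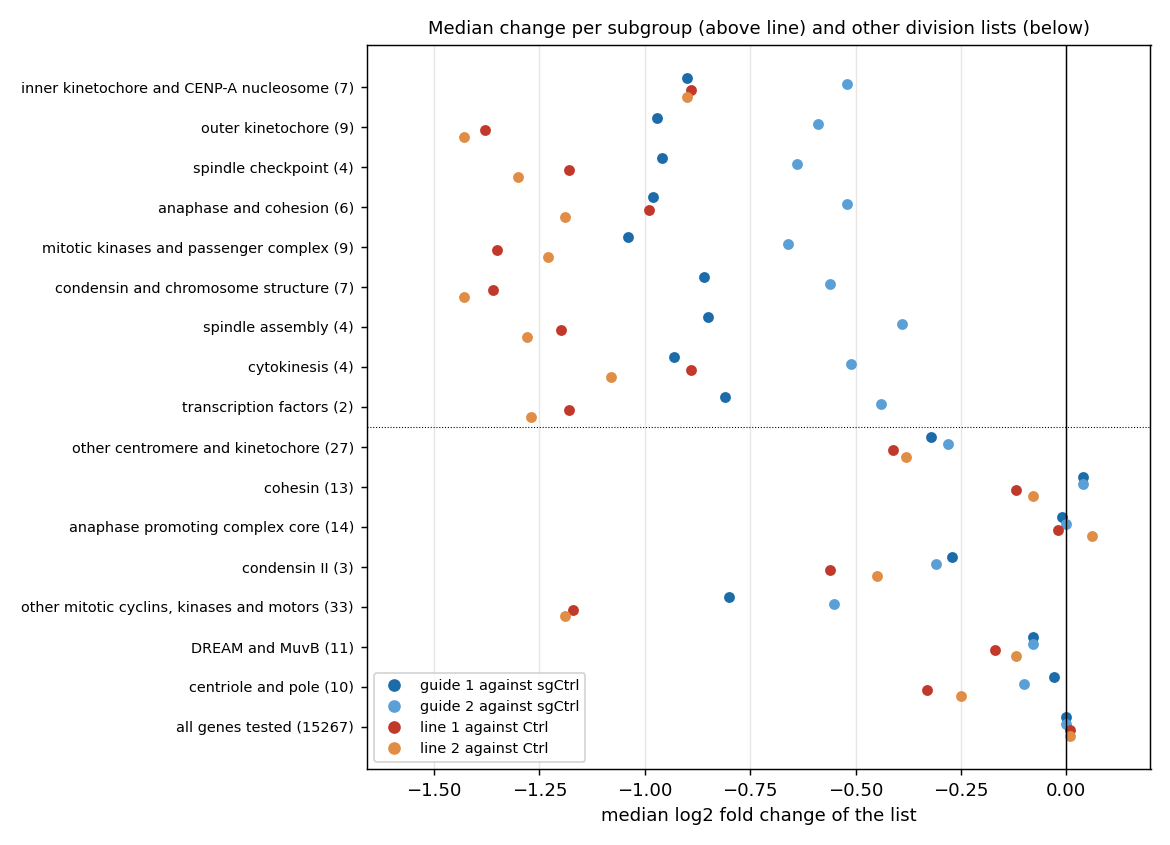
Median log2 fold change (x axis) of the 9 member subgroups and of 7 other division lists and all genes, in the 4 comparisons; numbers in brackets are genes tested in the overexpression table. All 9 subgroups and the other mitotic cyclins, kinases and motors lie at -0.39 or further left in every comparison, whereas the core anaphase promoting complex and cohesin lie near 0.

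One control library, replicate 1 of sgCtrl, was the lowest of its group for several long transcripts. It read low for MKI67 (226 CPM against 292 and 330), ASPM, CENPF and KNL1. In ASPM (62.6, 76.0 and 95.0 CPM) and KNL1 (40.2, 45.4 and 53.2) the replicates rose in steps, so it did not stand apart there. Over the 52 members, its log2 ratio to the mean of the other 2 correlated with transcript length (Spearman -0.55, given as a description). That ratio was above 0 for the long SMC4 (0.10) and TOP2A (0.09), and the correlation was not computed for the other 2 libraries. The correlation of length with the fold changes of the members was 0.30 and 0.10 with the guides and 0.28 and 0.24 in the lines. Over all tested genes with a known length it was 0.04 and 0.02 with the guides and -0.00 and 0.01 in the lines. Without sgCtrl replicate 1, 49 and 43 members were called lower with guides 1 and 2, as with it, but not all the same ones. Among the members given by library above, CENPA and SPC24 lost the guide 2 call and FOXM1, INCENP and NCAPD2 gained it. The part of transcript length in the sizes of the changes was not tested.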

How the data were processed

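The authors deposited raw read counts per gene in 2 tables of 9 libraries each (poly(A)-selected RNA, random-hexamer cDNA, 18 PCR cycles, per the labels' protocols), which also list a molecule type of genomic DNA. HISAT2 2.1.0 and featureCounts 2.0.1 of Subread are named per the submitters' processing notes, beside DESeq2 1.34.0, SAMtools 1.11, cutadapt 3.3, FastQC 0.11.9 and the builds hg38 and GRCh38.p13. Annotation release and strand setting: not given in the sources used here. Unique molecular identifiers are not mentioned, so PCR copies count as separate reads. The length column holds the whole gene span, so levels were not scaled by transcript length. Where members are ranked by level, the ranking is of counts or CPM alone.

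Groups came from the sample titles. Without a replicate number are 5 overexpression columns, used as libraries of their group in column order. Columns left unused numbered 0. Each table was filtered with edgeR's filterByExpr (min.count 10, min.total.count 15), scaled by TMM and tested with the quasi-likelihood test of edgeR 4.0.16 (robust, R 4.3.3) on its 9 libraries (6 residual degrees of freedom). A joint fit used all 18. Adjustment was by Benjamini and Hochberg's method over all genes tested, at a threshold of 0.05. Each adjusted p is edgeR's unless DESeq2 1.42.0 is named. SE is the absolute log2 fold change divided by the square root of the F statistic. The fit was tested on simulated data.

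Members and gene lists were chosen with earlier results of these data known. Values in every library are given for the member with the highest mean CPM of each subgroup, the 5 lowest and 5 highest mean changes over both guides and over both lines, and up to 5 of the largest differences between guides, between lines and in the joint fit. No member past the threshold rose against a control. Other members are given by counts, or were chosen after their values were seen. Transcript lengths are of the longest transcript per gene in GENCODE v29. The alternatives were DESeq2, other size factors, no filter, only the groups compared, non-robust dispersion, a replicate block, leaving out each library, and, added after seeing the data, members without a same-strand overlap.

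No pair of libraries within a group was a duplicate: chi-square per gene was 2.50 to 10.9 within groups. The highest, between sgCtrl replicates 1 and 3, exceeded the lowest between groups, 8.06.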

Additional observations from a re-analysis of the deposited data

Results flagged for a closer look

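The 2 guides against PURPL differed from each other in 25 members, all higher with guide 2, by a direct test of guide 2 against guide 1, where 5.51% of all genes were higher and 3.74% lower. The contrast compares the guides' libraries directly, in the fit of 9 libraries whose spread estimate includes sgCtrl. The 2 overexpression lines differed in 8 members, 6 lower and 2 higher in line 2, where 6.19% of all genes were lower and 6.18% higher. Both counts are given because each compares 2 groups that carry the same kind of perturbation. For the guides, the median difference over the members was 0.32 on the log2 scale. For the lines it was -0.05, and 44 of the 52 tested members did not pass. Whether members differed between the lines more often than other genes was not tested.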

How the results depend on the processing

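Counts of members lower kept within 1.5 times of those reported in the 4 comparisons with a control under all alternatives run. With DESeq2 they were 48 and 38 with the guides and 52 in each line. Leaving out 1 library gave 48 to 50 with guide 1, 39 to 44 with guide 2 and 52 in each line. Higher members in guide 2 against guide 1 ranged from 16 (without replicate 1 or 2 of guide 1) to 27 when 1 library was left out. Members lower in line 2 than in line 1 ranged from 3 to 6, and higher ones from 1 to 3, with 1 under DESeq2 and 0 among members without a same-strand overlap. Members for which the knockdown effect was lower than the overexpression effect numbered 0 to 1, the 1 being ASPM (-0.28) without sgCtrl replicate 1, and the opposite direction 31 to 35. With a replicate block, members lower numbered 49 and 44 with the guides, and 26 were higher with guide 2 than with guide 1. In the knockdown table no pairing by number was seen. Same-numbered libraries correlated by at most 0.0386 in their deviations, and 1 of 9 libraries correlated best with its own number. With 3 libraries a group, such low correlations cannot show that the numbers are unpaired. No replicate block was run in the overexpression table, since 5 of its columns carry no number. Single genes were followed through the alternatives only for the members chosen by rule to be given in every library. The other tested members, MKI67, KNL1 and PLK1 among them, were not followed. Within the followed members, no change that passed in the reported fit or in the alternative had its direction reversed. Of their 3379 values under an alternative, 3232 stayed on their side of the threshold, 123 lost the call and 24 gained one. Direction was not compared where neither fit passed, and the causes were not tested. Low counts limit CENPM, SKA1, SPC24, CDC25C and AURKB, among others.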
